A study of Homo sapiens with 12 samples.

Results

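GTF3A, the gene of transcription factor TFIIIA, was followed together with the genes of the TFIIIC subunits (GTF3C1, GTF3C2, GTF3C3, GTF3C4, GTF3C5 and GTF3C6) and of the TFIIIB subunits BRF1, BRF2 and BDP1, 10 of the 23064 genes in the count tables. The members were taken by symbol from both tables, and for each symbol the transcript with the most counts was used. GTF3A was chosen for its strong rise in both lines, so its change with the knockdown is given as a description without a test, while the other 9 were chosen by name as its partners. RNA was sequenced from CAL-29 and 5637 cells, which are established human bladder carcinoma cell lines, 3 days after transfection with the control siRNA (siCtrl) or with an siRNA against KMT9α, with 3 libraries for each siRNA in each line. The genotype is given as wild type for every library. KMT9α, encoded by N6AMT1, is the catalytic subunit of a histone lysine methyltransferase whose partner subunit is TRMT112. The labels do not name the siRNA, the columns of the tables call it si270, and the name siKMT9α#1 used here is taken from the results of the study. The reagent and the siRNA concentration differed between the lines and cannot be told apart from the line.

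RNA polymerase III (Pol III) transcribes short noncoding RNAs, among them the 5S ribosomal RNA, the transfer RNAs and the U6 small nuclear RNA. TFIIIA is a zinc finger protein that binds inside the 5S rRNA gene and brings in TFIIIC, and it also binds the 5S rRNA itself. On transfer RNA genes, TFIIIC recognises the promoter inside the gene without TFIIIA. In both cases TFIIIC places TFIIIB, which holds TBP, BDP1 and a BRF subunit, upstream of the start, and TFIIIB recruits the polymerase. BRF1 serves these genes, and BRF2 takes its place on genes with a promoter outside the transcribed part, such as U6.

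Of the members, 2 hold a 7-base match to the siRNA, called its site here, in their coding sequence and none holds it in a 3′ UTR. The site is ACATTCA, the complement of bases 2 to 8 of the guide strand, and it was searched on the transcribed strand of the MANE Select transcripts. It was found in the 3′ UTR of 0 of 10 members, against 1749 of 12329 genes tested in both lines (14.19%). No such share was counted for coding sequences, so the 2 members with a coding site cannot be set against all genes. The sites of the members are printed beside the sequence that the siRNA targets in N6AMT1, in 25 bases each with the heptamer in capitals.
N6AMT1, exon 3: acgctgtaacaaagttcACATTCAa
BDP1, exon 13: tcagagagcaagaattcACATTCAa
GTF3C2, exon 6: gacttccgagagcagaaACATTCAt
The N6AMT1 sequence lies at chr21:30254500-30254524 of GRCh37 on the minus strand, and the BDP1 sequence at chr5:70793212-70793236 on the plus strand. The GTF3C2 sequence lies on the minus strand of chromosome 2 and spans an exon junction.

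GTF3A lies on the plus strand of chromosome 13, at chr13:27998756-28009960 of GRCh37, and its MANE Select transcript has 9 exons and 1443 bases. The 250 bases before its start, from RefSeq on GRCh38.p14 (chr13:27424369-27424618, plus strand), have a GC content of 68.4%. The promoter is printed because GTF3A was the member that moved most, with the core letters of the NRF1 motif in capitals.
GTF3A promoter: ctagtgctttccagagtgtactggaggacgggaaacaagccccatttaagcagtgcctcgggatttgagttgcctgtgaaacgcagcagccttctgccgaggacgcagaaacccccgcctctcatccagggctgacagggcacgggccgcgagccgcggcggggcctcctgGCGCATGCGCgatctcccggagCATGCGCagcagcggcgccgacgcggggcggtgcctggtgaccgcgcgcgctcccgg
The letters GCGCATG, or CATGCGC on the other strand, start at 79, 76 and 57 bases before the gene (positions -79, -76 and -57), where the first and the second overlap. They were picked after the sequence had been seen. In the 250 bases before the start they were found in 1081 of 27305 promoters (3.96%), and among the 9 members with a promoter in the table in those of GTF3A and GTF3C1. The E-box CACGTG was present before GTF3C2, GTF3C4 and GTF3C6 (6.49% of all promoters, both strands). The ETS core CCGGAAGT was in none of the 9 (3.64% of all), and TATAAA in that of GTF3C3 (11.1% of all). A match describes these letters only, and binding of a factor was not measured.

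The libraries held between 24479348.5 and 35151256.5 counts on the transcripts kept. N6AMT1 was lower in every siKMT9α#1 library than in every control, with means of 10.4 and 2.58 CPM (counts scaled by library with edgeR's TMM method) in CAL-29 cells and of 13.3 and 2.84 CPM in 5637 cells. All 8 epithelial markers were detected in both lines, at a summed level of 11344 CPM with siCtrl and 5129 CPM with siKMT9α#1 in CAL-29 cells, and of 8697 and 5979 CPM in 5637 cells. At an adjusted p below 0.05, 6 of the 8 were lower and 1 higher in CAL-29 cells, and 7 lower and 1 higher in 5637 cells. The shares over all genes were 35.2% lower and 34.3% higher in CAL-29 cells, and 35.6% lower and 35.1% higher in 5637 cells. Of 7 markers of leukocytes, endothelium and muscle, CDH5 and MYH11 passed the filter on low counts, at no more than 4.81 CPM in any group, and their summed level was 3.59 CPM with siCtrl and 7.74 CPM with siKMT9α#1 in CAL-29 cells, and 4.81 and 4.85 CPM in 5637 cells. CDH5 alone had 0.683 and 3.81 CPM in CAL-29 cells and 1.18 and 0.0328 CPM in 5637 cells. DES had no count in any CAL-29 library, and CD3E had none in any 5637 library. Their part in the results was not tested. In bulk RNA, fewer cells of a kind and less RNA per cell cannot be told apart.

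TFIIIA rose several fold in both lines. In CAL-29 cells, GTF3A (NM_002097) had 11.4, 11.6 and 10.4 CPM in the siCtrl libraries and 57.1, 54.8 and 61.8 CPM in the siKMT9α#1 libraries. The groups were far apart, with the lowest siKMT9α#1 library well above the highest control. The mean went from 11.1 ± 0.661 to 57.9 ± 3.56 CPM (SD, n = 3), a 5.21-fold rise and a log2 fold change of 2.38 (standard error 0.07).

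In 5637 cells, the siCtrl libraries had 12.2, 11.9 and 12.6 CPM of GTF3A and the siKMT9α#1 libraries 71.4, 75.8 and 73.3 CPM. Here too the libraries fell into separate groups with little spread within each. The mean went from 12.2 ± 0.315 to 73.5 ± 2.22 CPM (SD, n = 3), a 6.01-fold rise and a log2 fold change of 2.59 (standard error 0.05). By log2 fold change GTF3A ranked 84 of 14673 genes tested in CAL-29 cells and 19 of 14335 in 5637 cells, so that 0.572% and 0.133% of genes rose by at least as much. These values chose the gene and are a description.

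GTF3A shares 181 exon bases (12.54% of its transcript) with MTIF3, a mitochondrial translation initiation factor gene on the opposite strand. The counting used Homer's default settings, and neither its strand setting nor whether the libraries keep the strand is spelled out in the sources used here. On the log2 scale MTIF3 differed by -0.04 (adjusted p = 0.727, edgeR) in CAL-29 and by 0.18 (adjusted p = 0.0941) in 5637 cells, at 8.92 and 8.41 CPM with siCtrl. GENCODE lists 4 pseudogenes named after GTF3A, none of which is in the count tables, and reads shared with them could not be followed.

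**Figure D1:**
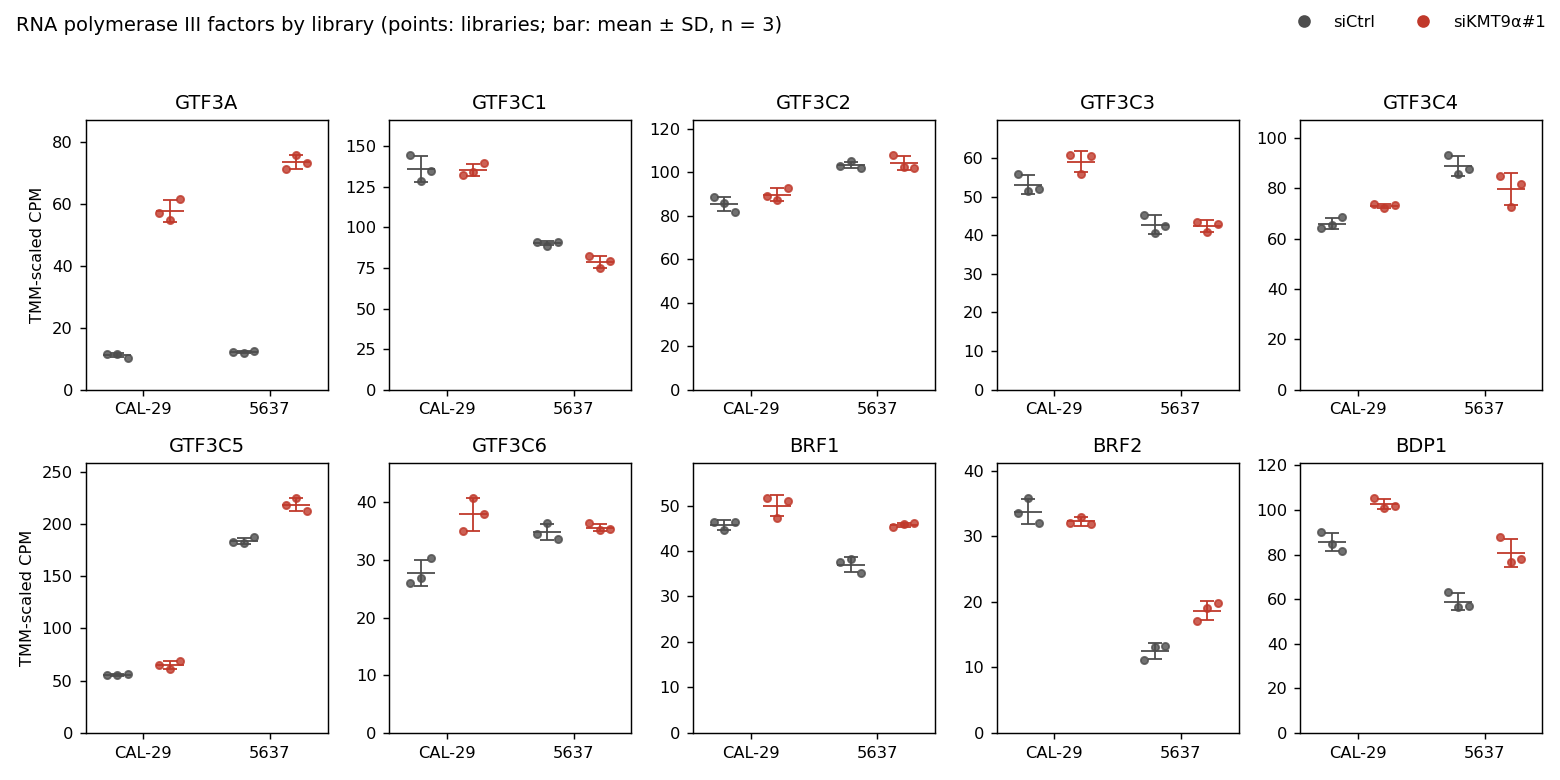
TMM-scaled CPM of the 10 members in each library (points), with the mean and SD of 3 libraries (bars), for siCtrl (grey) and siKMT9α#1 (red) in CAL-29 and 5637 cells, each panel on its own axis from 0. GTF3A goes from about 11.1 to 57.9 CPM in CAL-29 cells and from 12.2 to 73.5 CPM in 5637 cells, while the other members move by at most 1.49-fold.

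The partners of TFIIIA changed far less. Each line was tested with edgeR's quasi-likelihood test on all genes, with a call at an unadjusted p below 1e-06, the threshold of the study. Calls at a p of less than 0.05 after Benjamini-Hochberg adjustment are given as well. In CAL-29 cells, 0 of the 9 members other than GTF3A passed 1e-06, where 30.0% of all genes tested did; 6 of the 9 had an unadjusted p below 0.05, and DESeq2 called 1. At an adjusted p below 0.05, 5 of the 9 were higher and 0 lower (all genes: 69.5% called, 34.3% higher and 35.2% lower). In 5637 cells, 4 of the 9 passed 1e-06, where 35.6% of all genes did, and at an adjusted p below 0.05, 4 were higher and 2 lower (all genes: 70.7%, 35.1% higher and 35.6% lower). The share called in 5637 cells was thus close to that over all genes. The median log2 fold change of the 9 was 0.15 in CAL-29 and 0.03 in 5637 cells, against -0.02 and -0.01 over all genes tested. In each line the siCtrl and siKMT9α#1 libraries did not overlap for 6 of the 9, as for 72.3% (CAL-29) and 72.4% (5637) of all genes tested.

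**Figure D2:**
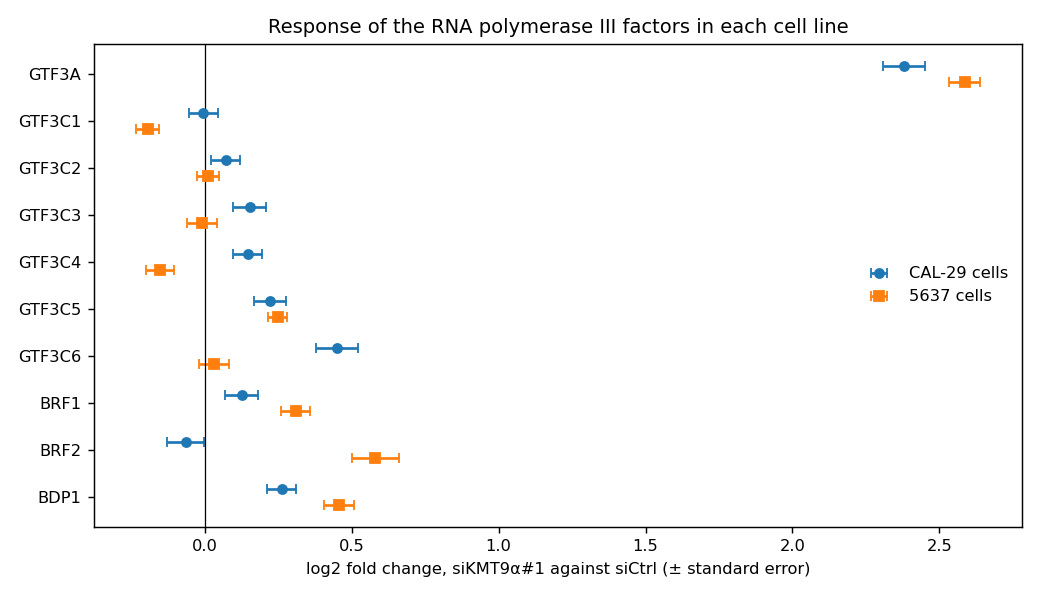
Log2 fold change of siKMT9α#1 against siCtrl (x axis) for each member, with its standard error, in CAL-29 (circles) and 5637 cells (squares). GTF3A stands at 2.38 and 2.59, and the other members span -0.07 to 0.45 in CAL-29 cells and -0.20 to 0.58 in 5637 cells.

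Among the TFIIIB subunits, with all libraries in the fit, all 3 passed 1e-06 upwards in 5637 cells and none in CAL-29 cells. Of all genes tested, 18.0% passed upwards in 5637 cells and 15.0% in CAL-29 cells. BDP1, which bends and holds the DNA in the initiation complex, had 63.1, 56.4 and 56.9 CPM with siCtrl and 87.9, 76.4 and 77.8 CPM with siKMT9α#1 in 5637 cells. Every siKMT9α#1 library was above every control (log2 fold change 0.46, standard error 0.05, adjusted p = 3.46e-09, edgeR). In CAL-29 cells, BDP1 had 90.2, 84.8 and 81.8 CPM with siCtrl and 105, 101 and 102 CPM with siKMT9α#1. The groups were again separate, with a smaller difference (log2 fold change 0.26, standard error 0.05, adjusted p = 8.53e-05). BDP1 is 1 of the 2 members whose coding sequence holds the site, and its part in these values was not tested.

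BRF2, the TFIIIB subunit of U6-type promoters, had 11.1, 13.0 and 13.3 CPM with siCtrl and 17.1, 19.0 and 19.9 CPM with siKMT9α#1 in 5637 cells. The groups did not overlap, and the change was the highest of the 9 in this line, 0.58 on the log2 scale (standard error 0.08, adjusted p = 2.07e-07). The CAL-29 libraries had 33.5, 35.8 and 32.0 CPM of BRF2 with siCtrl, against 31.9, 33.0 and 31.8 CPM with siKMT9α#1. These groups overlapped (log2 fold change -0.07, standard error 0.06, adjusted p = 0.369), and scaling by total counts turned the sign. BRF2 lies on the minus strand of chromosome 8, and 63.63% of its transcript overlaps exons of ADGRA2 on the other strand, which differed by 0.06 (adjusted p = 0.615) in CAL-29 and by -0.09 (adjusted p = 0.616) in 5637 cells.

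BRF1, the TFIIIB subunit of transfer RNA and 5S rRNA genes, had 37.7, 38.2 and 35.1 CPM with siCtrl and 45.2, 45.9 and 46.2 CPM with siKMT9α#1 in 5637 cells. Each siKMT9α#1 library was above each control (log2 fold change 0.31, standard error 0.05, adjusted p = 2.23e-06). The CAL-29 libraries had 46.3, 44.6 and 46.5 CPM against 51.6, 47.3 and 51.1 CPM, a difference that missed both thresholds (0.13 on the log2 scale, standard error 0.06, adjusted p = 0.0532). BRF1 shares 11.36% of its transcript with PACS2 on the other strand, which differed by 0.36 (adjusted p = 1.10e-09) in 5637 and by 0.04 (adjusted p = 0.603) in CAL-29 cells. The part of these shared bases in the values of BRF1 was not tested. The calls of BRF1 and BRF2 in 5637 cells lay close to 1e-06. With 1 library left out at a time, BRF1 lost its call in 5 of 6 fits and BRF2 in 3 of 6. BRF1 kept its call under 5 of 8 other settings. Without siKMT9α#1 replicate 2, 1 of the 9 members (BDP1) passed in this line, and without siCtrl replicate 1 or siKMT9α#1 replicate 3, 2 passed.

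The TFIIIC subunits moved in different directions. GTF3C5, a DNA-binding subunit of the part of TFIIIC that contacts the A box, had 55.1, 55.0 and 56.6 CPM with siCtrl and 65.0, 61.0 and 68.4 CPM with siKMT9α#1 in CAL-29 cells. The 5637 libraries had 183, 182 and 187 CPM against 218, 224 and 212 CPM. The siKMT9α#1 libraries were the higher ones in both lines. On the log2 scale the difference was 0.22 in CAL-29 cells (standard error 0.05, adjusted p = 0.00120). It was 0.25 in 5637 cells (standard error 0.03, adjusted p = 1.48e-07), where it passed 1e-06.

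GTF3C6, the smallest TFIIIC subunit, had 26.0, 26.8 and 30.4 CPM with siCtrl and 35.0, 40.7 and 38.0 CPM with siKMT9α#1 in CAL-29 cells. The groups were separate, and the difference of 0.45 on the log2 scale (standard error 0.07, adjusted p = 1.43e-05) was the largest of the 9 in this line. In 5637 cells, the libraries overlapped, at 34.5, 36.4 and 33.6 CPM against 36.3, 35.1 and 35.3 CPM (log2 fold change 0.03, standard error 0.05, adjusted p = 0.600). GENCODE lists 3 pseudogenes named after GTF3C6, none of them in the count tables. In CAL-29 cells, GTF3C6 and BDP1 both passed 1e-06 without siCtrl replicate 1, while GTF3C6 alone passed without siCtrl replicate 3.

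GTF3C4, a TFIIIC subunit with histone acetyltransferase activity, moved in opposite directions in the lines. In CAL-29 cells it had 64.1, 65.5 and 68.6 CPM with siCtrl and 73.7, 72.3 and 73.3 CPM with siKMT9α#1 (log2 fold change 0.15, standard error 0.05, adjusted p = 0.0130). The 5637 libraries had 93.2, 85.6 and 87.6 CPM against 85.0, 72.6 and 81.9 CPM (log2 fold change -0.15, standard error 0.05, adjusted p = 0.00474). The libraries were separate in both lines, in 5637 cells only narrowly (85.0 against 85.6 CPM).

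GTF3C1, the largest subunit, which contacts the B box, fell in 5637 cells from 91.0, 88.7 and 90.7 CPM to 82.1, 74.7 and 79.5 CPM (log2 fold change -0.20, standard error 0.04, adjusted p = 8.72e-05). The CAL-29 libraries had 144, 129 and 134 CPM with siCtrl and 132, 134 and 140 CPM with siKMT9α#1. These overlap, and the log2 fold change of -0.01 (adjusted p = 0.916) turned positive under other scalings of the libraries. GTF3C3, a subunit with tetratricopeptide repeats that contacts TFIIIB, had values of 0.15 (adjusted p = 0.0204) in CAL-29 and -0.01 (adjusted p = 0.853) in 5637 cells. GTF3C2, which belongs with GTF3C1 to the part of TFIIIC on the B box, had 0.07 (adjusted p = 0.208) and 0.01 (adjusted p = 0.804), and its coding sequence holds the other site. GTF3C2 and GTF3C3 share 25.56% and 5.54% of their transcripts with exons of other genes, mainly GTF3C2-AS1 and CCDC150, and of these CCDC150 was higher, by 1.29 (adjusted p = 2.16e-06) in CAL-29 and by 0.50 (adjusted p = 0.00120) in 5637 cells.

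The response of 4 of the 9 members differed between the lines, by an interaction term over all 12 libraries (edgeR, adjusted p below 0.05), where 50.4% of 15395 genes differed. As 5637 minus CAL-29, the log2 difference was 0.63 for BRF2 (standard error 0.10, adjusted p = 8.43e-06). It was -0.43 for GTF3C6 (standard error 0.09, adjusted p = 0.000195), -0.32 for GTF3C4 (standard error 0.07, adjusted p = 0.000634) and -0.21 for GTF3C1 (standard error 0.06, adjusted p = 0.00929). Thus the called TFIIIC subunits responded lower in 5637 cells and the called TFIIIB subunit higher. GTF3C3 (adjusted p = 0.0502), BDP1 (adjusted p = 0.0507) and BRF1 (adjusted p = 0.0576) stood just past the threshold, at -0.18, 0.18 and 0.17. GTF3C2 differed by -0.08 (standard error 0.06, adjusted p = 0.310) and GTF3C5 by 0.01 (standard error 0.06, adjusted p = 0.907). The median over all genes was -0.04.

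In control cells, the level of each of the 10 members differed between the lines (5637 siCtrl against CAL-29 siCtrl, edgeR, adjusted p below 0.05), as that of 85.4% of all genes did. GTF3A had the smallest difference. With all libraries scaled together it had 10.8 ± 0.637 CPM in CAL-29 cells and 12.5 ± 0.321 CPM in 5637 cells (SD, n = 3), a log2 difference of 0.21 (standard error 0.07, adjusted p = 0.0117), and without CAL-29 siCtrl replicate 3 it was 0.16 (adjusted p = 0.0664). GTF3C5 had the largest, with 54.1 ± 0.941 CPM in CAL-29 cells and 188 ± 3.02 CPM in 5637 cells (log2 difference 1.79, standard error 0.04, adjusted p = 1.38e-24). GTF3C2, GTF3C4 and GTF3C6 were also higher in 5637 cells, by 0.34, 0.49 and 0.40. BRF2 was lower in 5637 cells, with 12.7 ± 1.20 against 32.9 ± 1.87 CPM (log2 difference -1.37, standard error 0.07, adjusted p = 1.81e-16). GTF3C1, GTF3C3, BRF1 and BDP1 were lower by smaller amounts, at -0.52, -0.25, -0.24 and -0.47. So 5 members were higher and 5 lower, and all 3 subunits of TFIIIB were on the lower side in 5637 cells. BRF2 shares exon bases with ADGRA2, which had 15.0 CPM in CAL-29 and 3.24 CPM in 5637 control cells (lines scaled separately). The part of the shared bases in the baseline difference of BRF2 was not tested.

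To compare genes with each other, CPM were divided by the length of the MANE Select transcript in kilobases, which need not be the length that was counted. In CAL-29 control cells the order was led by GTF3C6 (35.2 ± 2.95 CPM per kilobase; SD, n = 3), GTF3C5 (26.5 ± 0.433), GTF3C2 (23.6 ± 0.937) and GTF3C1 (19.2 ± 1.12). BRF2, BRF1 and GTF3C3 followed between 12.5 and 13.2, and BDP1, GTF3A (7.70 ± 0.458) and GTF3C4 came last, between 7.67 and 7.75. Within the second and the third of these sets, neighbours lay within their spread. With siKMT9α#1, GTF3A was at 40.1 ± 2.46 CPM per kilobase, between GTF3C6 (48.1 ± 3.61) and GTF3C5 (30.9 ± 1.76).

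In 5637 control cells, GTF3C5 stood first at 87.7 ± 1.43 CPM per kilobase, before GTF3C6 (44.2 ± 1.80), GTF3C2 (28.6 ± 0.432) and GTF3C1 (12.7 ± 0.180). GTF3C4, BRF1 and GTF3C3 had 10.3 ± 0.459, 10.1 ± 0.457 and 10.03 ± 0.557, within their spread. GTF3A had 8.47 ± 0.218, and BDP1 and BRF2 the lowest levels, at 5.33 ± 0.339 and 4.87 ± 0.468. With siKMT9α#1, GTF3A was at 51.0 ± 1.54 CPM per kilobase, second to GTF3C5 (104 ± 2.89) and above GTF3C6 (45.2 ± 0.822). In both lines TFIIIA mRNA thus went from among the scarcest of the 10 per length to the second highest.

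**Figure D3:**
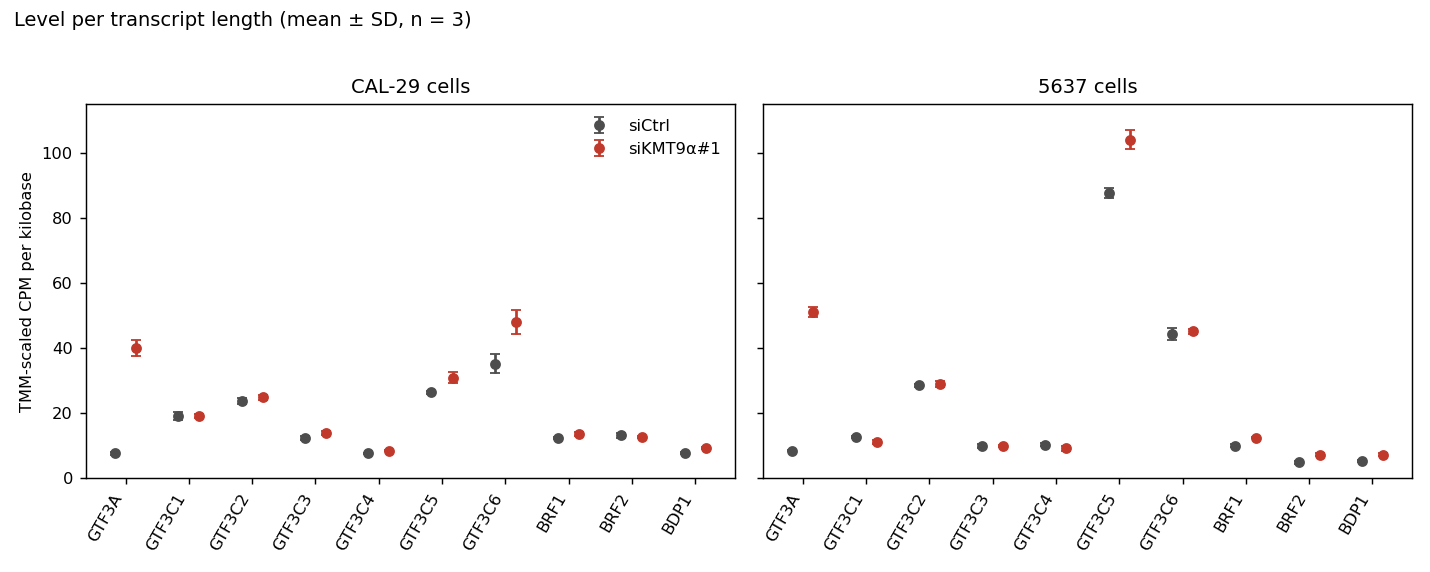
Level of each member as TMM-scaled CPM per kilobase of its MANE Select transcript (mean and SD of 3 libraries), with siCtrl (grey) and siKMT9α#1 (red), in CAL-29 (left) and 5637 cells (right). GTF3A moves from 7.70 to 40.1 and from 8.47 to 51.0, and GTF3C5 is the highest member in 5637 cells.

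The genes whose profile was most like that of GTF3A were found by the root mean square difference of log2 CPM, each gene centred on its mean over the 12 libraries, among 11908 genes with a mean of at least 50 counts. They were KCNK1, a potassium channel (difference 0.28), AATF, a nucleolar protein of ribosome assembly (0.38), GORASP2, a Golgi stacking protein (0.41), SNHG15, a host gene of small nucleolar RNAs (0.45), and SBDSP1, a pseudogene of the ribosome factor SBDS whose reads can be split with its parent gene (0.49). The same 5 genes came first with DESeq2's size factors. Their log2 fold changes ran from 1.53 to 2.08 in CAL-29 cells and from 1.74 to 2.22 in 5637 cells. No other member was near, since the closest, BDP1, ranked 2094 (1.12) and the farthest, GTF3C1, 7241 (1.38). The profile holds the rise by which GTF3A was chosen, which favours genes with a large rise, so these ranks are a description.

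**Figure D4:**
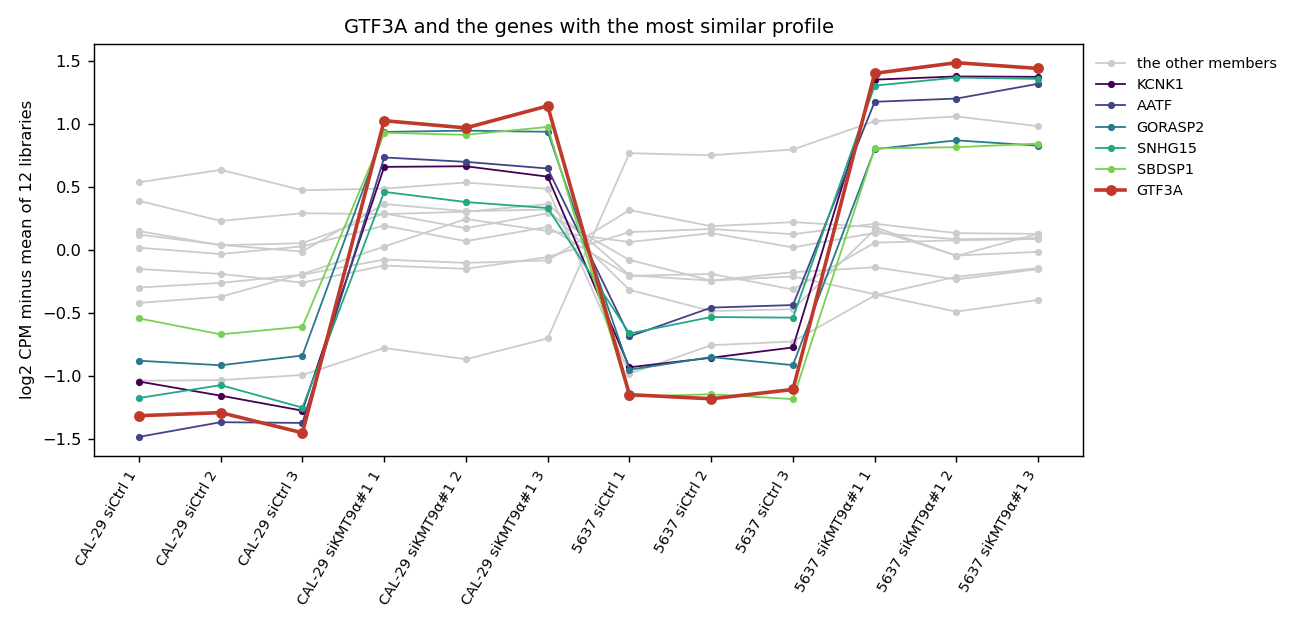
Log2 CPM minus the mean over the 12 libraries (y axis) in each library (x axis) for GTF3A (red), the 5 genes with the most similar profile (coloured) and the other 9 members (grey); lines join libraries only to guide the eye. KCNK1, AATF, GORASP2, SNHG15 and SBDSP1 step up with siKMT9α#1 in both lines as GTF3A does, at differences of 0.28 to 0.49.

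The rest of the Pol III machinery was described from lists. Of the 11 subunits specific to Pol III, 5 passed 1e-06 upwards in CAL-29 cells and 4 in 5637 cells, among them POLR3C and POLR3G in both lines, with none downwards in either line. Over all genes, 15.0% passed in each direction in CAL-29 cells, while 18.0% passed upwards and 17.6% downwards in 5637 cells. At an adjusted p below 0.05, 7 were higher and 2 lower in CAL-29 cells, and 8 higher and 2 lower in 5637 cells. That threshold was passed by most genes: 34.3% upwards and 35.2% downwards (CAL-29), 35.1% upwards and 35.6% downwards (5637). The median log2 fold change of the 11 subunits was 0.30 and 0.28.

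POLR3G and POLR3GL encode alternative versions of the same subunit, and they moved in opposite directions. POLR3G had 2.24, 1.76 and 2.42 CPM with siCtrl and 8.96, 7.68 and 8.11 CPM with siKMT9α#1 in CAL-29 cells, and 8.19, 8.54 and 8.08 against 21.2, 21.3 and 22.5 CPM in 5637 cells. It had the largest rise of the list in both lines (log2 fold change 1.94, standard error 0.15, adjusted p = 4.55e-10, and 1.39, standard error 0.07, adjusted p = 5.29e-16). POLR3GL had 4.90, 5.55 and 6.88 CPM with siCtrl and 3.60, 4.18 and 3.66 CPM with siKMT9α#1 in CAL-29 cells, and 8.65, 8.22 and 8.25 against 5.10, 5.83 and 6.17 CPM in 5637 cells. The differences were -0.60 on the log2 scale (standard error 0.15, adjusted p = 0.00185) and -0.55 (standard error 0.10, adjusted p = 2.76e-05), and neither passed 1e-06. POLR3K, a small subunit with a role in termination, rose by 1.01 in CAL-29 cells (adjusted p = 6.70e-10) and had 0.40 in 5637 cells (adjusted p = 5.92e-05). POLR3B and CRCP hold the site of the siRNA in their 3′ UTR. The counts of CRCP are those of NR_024548, while the site was searched in its MANE Select transcript. CRCP had 0.30 in CAL-29 cells (adjusted p = 2.27e-05) and rose by 0.50 in 5637 cells (adjusted p = 1.70e-12), and POLR3B had -0.25 in CAL-29 cells (adjusted p = 0.00265) and -0.30 in 5637 cells (adjusted p = 0.000645).

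Of the 7 subunits that Pol III shares with other polymerases, POLR1C rose in CAL-29 cells (0.68, adjusted p = 8.13e-08) and POLR2H fell in 5637 cells (-0.44, adjusted p = 9.77e-09), and no other passed 1e-06. Among 8 genes of TBP, the SNAPc complex and its activators, which serve the U6-type promoters, POU2F1 rose in both lines (0.55, adjusted p = 2.20e-07, and 0.62, adjusted p = 4.43e-11). SNAPC3 (0.81, adjusted p = 1.50e-14) and SNAPC4 (0.38, adjusted p = 1.97e-09) passed 1e-06 in 5637 cells. TBP, which all 3 polymerases use, had 0.03 (adjusted p = 0.741) and 0.06 (adjusted p = 0.352).

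Among known regulators of Pol III, MYC, an activator, rose in both lines by 0.70 (adjusted p = 6.52e-11) and 0.56 (adjusted p = 1.88e-14). MAF1, a repressor, had 0.29 (adjusted p = 2.31e-05) and 0.20 (adjusted p = 3.27e-05), without passing 1e-06. RB1, also a repressor, had -0.31 in CAL-29 cells (adjusted p = 9.65e-05), where its level with siCtrl was 47.9 CPM. In 5637 cells it had 0.30 (adjusted p = 0.0214), at a much lower control level of 5.04 CPM.

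The 5S rRNA leaves its gene bound by TFIIIA or by the ribosomal protein RPL5 and is assembled with RPL5, RPL11 and the factors RRS1, RPF2 and HEATR3. All 5 of these genes passed 1e-06 upwards in CAL-29 cells (median 0.72 on the log2 scale) and 3 of them, RPL5, RRS1 and RPF2, in 5637 cells (median 0.20), where 15.0% and 18.0% of all genes did. RRS1 had 27.1, 27.0 and 27.6 CPM with siCtrl and 54.7, 58.8 and 54.7 CPM with siKMT9α#1 in CAL-29 cells, and 31.4, 31.3 and 35.4 against 44.6, 45.7 and 44.8 CPM in 5637 cells. The libraries were separate in both lines (log2 fold change 1.04, adjusted p = 1.77e-12, and 0.46, adjusted p = 7.75e-09).

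**Figure D5:**
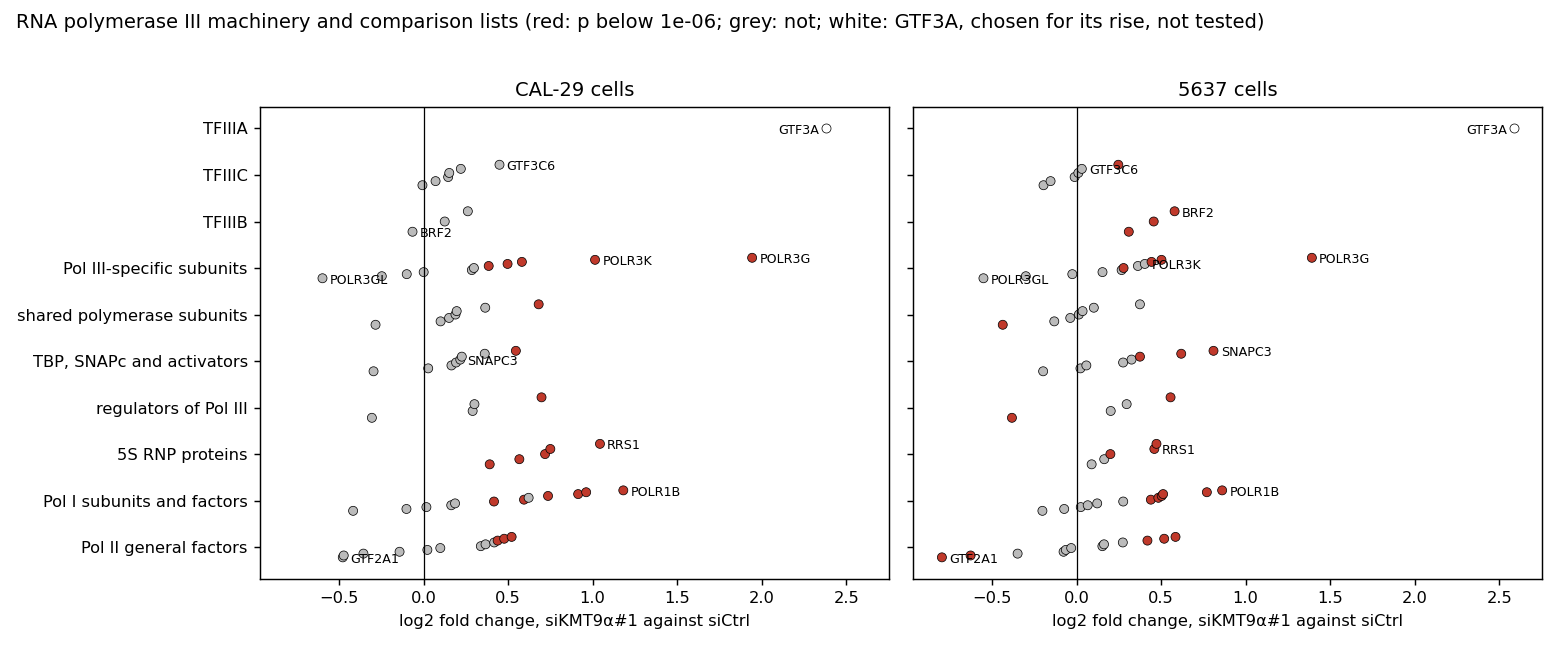
Log2 fold change of siKMT9α#1 against siCtrl (x axis) for each gene of the Pol III lists and of 2 comparison lists for Pol I and Pol II (rows), in CAL-29 (left) and 5637 cells (right); red points have p below 1e-06, grey points do not, and the white point is GTF3A, for which no test is given. GTF3A lies at 2.38 and 2.59, beyond POLR3G at 1.94 and 1.39.

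The products of Pol III were hardly counted. Of 37 symbols listed for them, among them the 5S rRNA, U6, 7SK, 7SL, Y and vault RNAs, 10 are in the tables, and 8 of these had a mean below 1 count per library in each line. RMRP and RPPH1 passed the filter in CAL-29 cells, where they differed by -0.09 on the log2 scale (standard error 0.31, adjusted p = 0.811) and 0.11 (standard error 0.56, adjusted p = 0.875), and none passed in 5637 cells. The RNAs that these factors transcribe were therefore, for the most part, not measured here.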

How the data were processed

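RNAseq libraries of CAL-29 and 5637 cells treated with siCtrl or siKMT9α#1 were analysed, with 3 libraries per group and 12 in all. Groups and replicate numbers came from the sample titles. Alignment (STAR, hg19), counting (Homer) and the first tests (edgeR) were done by the authors. What they deposited are estimated counts of 37400 RefSeq transcripts (23064 symbols), not normalized and in steps of 0.5. Columns with the authors' own log2 fold change and p-value, raw and adjusted, were left unused.

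Each symbol was represented by its transcript of most counts, rounded. Scaling (TMM), filtering (filterByExpr) and testing used edgeR 4.0.16 in R 4.3.3, per line with the quasi-likelihood F test, which left 14673 genes in CAL-29 and 14335 in 5637 cells. The difference between the lines and between their controls was tested in a joint fit of all 12 libraries (15395 genes). The standard error was the log2 fold change divided by the square root of F. CPM are TMM-scaled counts. No label says that replicates are separate cultures, so p-values measure the spread between these libraries, which may be technical. Replicates differed by more than sampling noise (chi-square per degree of freedom 2.22 to 11.7). The tests were checked on simulated data. Exons, 3′ UTRs and lengths are from GENCODE on GRCh37, and promoters from RefSeq.

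The genes named are the 10 members, N6AMT1 and TRMT112, the lists, the genes overlapping a member and the 5 genes most like GTF3A. Some genes of the lists are not reported here by name. The members and lists were chosen with earlier results of these data known. The alternatives were DESeq2 1.42.0, its size factors in edgeR, total counts, no filter, at least 10 counts in every library, every transcript, counts not rounded, the replicate block and leaving out each library.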

Additional observations from a re-analysis of the deposited data

Results flagged for a closer look

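The response to siKMT9α#1 differed between the lines for 4 of the 9 members other than GTF3A, by the interaction term of the joint edgeR fit. As 5637 minus CAL-29 on the log2 scale, the difference was 0.63 for BRF2 (adjusted p = 8.43e-06), which was higher in 3 of 3 siKMT9α#1 libraries of 5637 cells and overlapped its controls in CAL-29 cells. It was -0.43 for GTF3C6 (adjusted p = 0.000195), where the 3 siKMT9α#1 libraries of CAL-29 cells were above their controls and those of 5637 cells overlapped theirs. For GTF3C4 it was -0.32 (adjusted p = 0.000634), with all 3 siKMT9α#1 libraries above the controls in CAL-29 cells and all 3 below in 5637 cells. For GTF3C1 it was -0.21 (adjusted p = 0.00929), with all 3 below the controls in 5637 cells. Across all genes 50.4% differed, and reagent and siRNA concentration cannot be told apart from the line.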

How the results depend on the processing

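GTF3A had a log2 fold change of 2.38 to 2.46 in CAL-29 cells and 2.53 to 2.59 in 5637 cells under the other settings, and of 2.34 to 2.42 and 2.57 to 2.61 without each library. Of the 9 other members in CAL-29 cells, 0 passed 1e-06; 2 passed with total counts, without the filter or with the replicate block, 1 with DESeq2, 5 at an adjusted p below 0.05, and 0 to 2 without each library. In 5637 cells, 4 passed, 2 to 4 under the other settings at 1e-06 (2 with total counts) and 1 to 4 without each library. Of the other listed genes (61 tested in CAL-29 cells, 59 in 5637 cells), 22 and 24 passed, 48 and 44 at an adjusted p below 0.05, and 11 to 27 and 20 to 23 without each library; the 11 was without CAL-29 siKMT9α#1 replicate 3, and 14 passed without replicate 2. Over all genes, 4402 and 5104 passed, and 10194 and 10138 at an adjusted p below 0.05. When every transcript was tested, 7863 and 9248 transcripts passed, which are not counts of genes. Among the transcripts kept to represent a gene, 4370 and 5105 passed in those fits. Small values changed sign. GTF3C1 in CAL-29 cells had 0.0038 with DESeq2's size factors and 0.0039 with DESeq2, 0.074 with total counts, 0.00058 without the filter, and -0.038 to 0.041 without each library. With total counts, BRF2 in CAL-29 cells had 0.015, GTF3C2 and GTF3C6 in 5637 cells -0.043 and -0.023, and the interaction of GTF3C5 -0.11. Without each library, these ranges were -0.013 to 0.029 for GTF3C2 and -0.046 to 0.033 for GTF3C3 in 5637 cells, and -0.035 to 0.048 for the interaction of GTF3C5. The causes were not tested. Scaling by total counts moved the median interaction of all genes from -0.04 to -0.16, and the share of calls that were higher from 49.8% to 59.4% in CAL-29 cells and from 50.6% to 42.8% in 5637 cells. The interaction was called for 4 members, for 5 or 6 under the other settings, and 4 or 5 without each library; the baseline difference for 10, and 9 or 10 without each library. Same-numbered libraries had correlated deviations of 0.149, 0.0194 and 0.0608 (CAL-29) and of 0.133, -0.00778 and -0.0136 (5637), so the numbers were not taken to pair them; with the replicate block, GTF3C6 and BDP1 passed in CAL-29 cells. All 10 members passed the filter on low counts in both lines.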

Other observations

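Genes of the other nuclear polymerases were measured in the same libraries. Of 12 subunits and factors of RNA polymerase I, which transcribes the large ribosomal RNAs, 6 passed 1e-06 upwards and 0 downwards in CAL-29 cells (edgeR, median log2 fold change 0.51), and 6 upwards and 0 downwards in 5637 cells (median 0.36). Over all genes, 15.0% passed in each direction in CAL-29 cells, and 18.0% upwards and 17.6% downwards in 5637 cells. POLR1B, its second largest subunit, rose by 1.18 in CAL-29 cells (adjusted p = 4.21e-12) and by 0.86 in 5637 cells (adjusted p = 1.99e-16), and RRN3, its initiation factor, by 0.59 (adjusted p = 2.30e-09) and 0.77 (adjusted p = 8.18e-15). TAF1A, a subunit of the promoter factor SL1, rose by 0.91 (adjusted p = 1.46e-07) and 0.51 (adjusted p = 8.97e-07), whereas UBTF had -0.10 (adjusted p = 0.0617) and -0.07 (adjusted p = 0.0649). The values of TAF1A are from different transcripts, NM_001201536 in CAL-29 and NM_005681 in 5637 cells, as the one with the most counts differed.

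Of 12 general factors of RNA polymerase II, 3 passed upwards and 0 downwards in CAL-29 cells (median 0.22), and 3 upwards and 2 downwards in 5637 cells (median 0.06), to be read against the same shares of all genes. GTF2E2 and GTF2H1, of TFIIE and TFIIH, rose in both lines (0.48 and 0.44 in CAL-29 cells, 0.42 and 0.52 in 5637 cells). GTF2A1 and GTF2H5 fell past 1e-06 in 5637 cells (-0.80, adjusted p = 2.42e-09, and -0.63, adjusted p = 2.39e-06) and had -0.48 and -0.47 in CAL-29 cells. The site ACATTCA is present in their 3′ UTR, with 2 copies in GTF2A1 and 1 in GTF2H5, and also, with 2 copies, in that of POLR1A, which had 0.42 in CAL-29 cells (adjusted p = 1.05e-06) and 0.28 in 5637 cells (adjusted p = 8.98e-06). Its part in these values was not tested. TRMT112, the partner of KMT9α, was higher by 0.27 (adjusted p = 0.000480) in CAL-29 and by 0.16 (adjusted p = 0.000586) in 5637 cells.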
